A study of Mus musculus with 59 samples.

Results

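Fluoxetine, an antidepressant that blocks reuptake of serotonin, and the mood stabilizer lithium were set directly against each other in the prefrontal cortex of wild-type male pups. The comparison took the 5 libraries labelled WT, Fluoxetine, male and the 5 labelled WT, Lithium, male, 10 of the 59 libraries of the series. The groups are those of the labels, and this pair was taken because neither holds libraries low in the mitochondrial transcript mt-Atp6. All 10 pups were C57BL/6J mice of the wild-type genotype from a study of Myt1l, a neuronal zinc finger transcription factor gene, whose other pups were labelled heterozygous (HT). They were sampled at postnatal day 25 after 3 weeks of drug, from day 3 to day 24, received through the milk of the dam. The 5 wild-type vehicle males of the same age are given as background. Doses, drug levels and the assignment of pups to dams and litters are not given in the sources used here, so the p-values measure only the spread between these samples, and a drug effect on the dam cannot be told apart from one on the pup.

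Fluoxetine blocks the serotonin transporter, so serotonin lingers at its receptors, which are widespread in the cortex. Lithium inhibits the glycogen synthase kinases Gsk3a and Gsk3b and the inositol phosphatases that recycle inositol for phosphoinositide signalling. The integrated stress response, a pathway taken up below, slows protein synthesis and favours translation of the transcription factor Atf4, which in turn switches on genes of amino acid transport and synthesis.

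The values are normalized counts, that is, read counts scaled by the size factor of their library. Depth ran from 29532040 to 32971620 reads in the fluoxetine males and from 25317395 to 31837341 in the lithium males. Markers of cortical excitatory neurons were abundant in both groups: Slc17a7, the vesicular glutamate transporter, averaged 51201 ± 7724 normalized counts with fluoxetine and 56708 ± 5564 with lithium (SD, n = 5 each), and Tbr1, a cortical transcription factor, 3176 ± 618 and 3411 ± 367. By that choice mt-Atp6, low in every library of the other 3 fluoxetine groups of the series, lay between 38093 and 52893 in these 10 libraries. Genes of the olfactory bulb, a neighbouring region, did vary among them. Their level, a mean of standardized log2 values over 15 genes, was above 0.5 in fluoxetine males 1, 2 and 5 and in lithium male 1 (0.670, 1.18, 1.17 and 0.956) and between -0.850 and -0.0186 in the other 6. Results are therefore also given without those 4 libraries and with the bulb level as a covariate. Leaving them out kept only fluoxetine males 3 and 4 and lithium males 2 to 5 of the 10. A fall in calls in that fit cannot be told apart from the loss of libraries.

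In the direct comparison 9 genes differed, and all 9 were lower with fluoxetine, that is, higher with lithium. They were Uap1l1, Slc35f6, Mrtfa, Tcea2, Eme2, Cort, Ints1, Spns2 and Ripor1, with lithium levels 1.20 to 1.73 times those with fluoxetine and no overlap between the 5 libraries of one drug and the 5 of the other. A gene is said to be called when its adjusted p from limma, fitted to all 59 libraries, is under 0.05. These 9 are 0.0544% of the 16546 genes tested, and 0 genes were called higher with fluoxetine. At an unadjusted p under 0.05 stood 1690 genes (10.2%), 762 higher (4.61%) and 928 lower (5.61%) with fluoxetine. Without overlap between the groups were 175 genes higher (1.06%) and 268 lower (1.62%). The recovered read counts gave 11 calls with edgeR, among them all 9, and 45 with DESeq2, 13 higher and 32 lower, among them 8 of the 9. As shares of the genes tested these counts are 0.0665% for edgeR and 0.272% for DESeq2 (0.0786% higher, 0.193% lower).

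The calls leaned on the libraries and on the model of the spread. With the olfactory bulb level as a covariate 0 genes were called by limma (1490 at an unadjusted p under 0.05). The fit without the 4 libraries high in bulb genes, which kept only fluoxetine males 3 and 4, called 1 gene. This was the neurotrophic cytokine gene Cntf, named after its values were seen and none of the 9. The count was also 0 without lithium male 3 (1221 at an unadjusted p under 0.05). It was 1 without fluoxetine male 1 or male 5 (Uap1l1), and 3 without lithium male 2 (Uap1l1, Slc35f6 and Mrtfa). A fit to the 10 compared libraries alone called 6 genes, of which Mrtfa was among the 9. In all of these fits the 9 genes stayed lower with fluoxetine. Without overlap between the drugs, only the fit with the bulb covariate could have changed that direction.

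Cort, which encodes cortistatin, a somatostatin-like neuropeptide of a subset of cortical interneurons, had the largest log2 difference of the 9. It lies at chr4:149125034-149126763 on the minus strand (GRCm38). The fluoxetine males 1 to 5 had 129, 77.1, 124, 148 and 106 normalized counts, and the lithium males 184, 211, 212, 195 and 188. The highest fluoxetine library thus lay below the lowest lithium library, and vehicle males averaged 164 ± 23.3 (SD, n = 5), between the drug groups. The log2 difference, fluoxetine minus lithium, was -0.79 (SE 0.162, adjusted p 0.029 by limma), a lithium level 1.73 times that with fluoxetine. Against vehicle the log2 difference was -0.51 for fluoxetine and 0.28 for lithium, neither called, and these contrasts share the vehicle libraries.

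Uap1l1 had the smallest p. Its product resembles the enzyme that makes the sugar donor UDP-N-acetylglucosamine, and the gene lies at chr2:25359889-25365682 on the minus strand. Its normalized counts were 237, 216, 228, 254 and 233 with fluoxetine and 335, 366, 369, 306 and 305 with lithium, against 267 ± 27.3 in vehicle males. Every lithium library was above every fluoxetine library, with a log2 difference of -0.52 (SE 0.0904, adjusted p 0.00771). It kept its call without any single library other than lithium male 3, where the adjusted p was 0.0811.

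Mrtfa, a coactivator of serum response factor that is released when actin polymerizes, had 1241, 1444, 1484, 1496 and 1311 normalized counts with fluoxetine and 1799, 1802, 1866, 1965 and 1929 with lithium. The difference was -0.43 on the log2 scale (SE 0.0835, adjusted p 0.02). Vehicle males ranged from 1184 to 1726, over the fluoxetine values and below all lithium values. Mrtfa lies at chr15:81012281-81190757 on the minus strand and overlaps Sgsm3 on the other strand. Ints1, a subunit of the Integrator complex that cleaves nascent RNA, lies at chr5:139751282-139775674, minus strand. Its libraries held 1993, 2598, 2469.8, 2362 and 2263 normalized counts under fluoxetine and 3747, 3222, 3511, 3172 and 2681 under lithium, with a log2 difference of -0.48 (SE 0.0998, adjusted p 0.0315). Lithium male 1 was the highest and fluoxetine male 1 the lowest of the 10. Tcea2, an elongation factor of RNA polymerase II at chr2:181680310-181688071 on the plus strand, had 767, 883, 910.4, 963 and 818 against 1111, 1421, 1231, 1206 and 1116 and a log2 difference of -0.49 (SE 0.0952, adjusted p 0.02).

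Spns2, which exports the lipid signal sphingosine-1-phosphate from cells, had 1263, 1303, 1381, 1339.6 and 1336 normalized counts with fluoxetine and 1486, 1616, 1567, 1758 and 1855 with lithium. That is a log2 difference of -0.32 (SE 0.0683, adjusted p 0.0413). The gene lies at chr11:72451638-72489904, minus strand, and overlaps Mybbp1a on the other strand. For the solute carrier Slc35f6, at chr5:30647933-30659729 on the plus strand, the values were 882, 799, 930.3, 888 and 843 and 1034, 979, 1079.7, 1002 and 1139. Its log2 difference of -0.27 (SE 0.0514, adjusted p 0.02) was the smallest in size of the 9, and its SE was the smallest too. Ripor1, a binding partner of the GTPase RhoA at chr8:105605255-105622219 on the plus strand, had 2402, 2645, 2733, 2821 and 2558 and 3266, 3085, 3281, 3573 and 3393, a log2 difference of -0.34 (SE 0.0721, adjusted p 0.0413). Eme2, a partner of the DNA endonuclease Mus81, had 838, 797, 935, 847 and 739 and 1039, 1147, 1290.2, 1029 and 1013 (log2 difference -0.41, SE 0.0819, adjusted p 0.0257). Eme2 lies at chr17:24888486-24895087, minus strand, and overlaps Mapk8ip3 on the same strand and Spsb3 on the other, so its counts are uncertain if reads were divided among them.

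**Figure D1:**
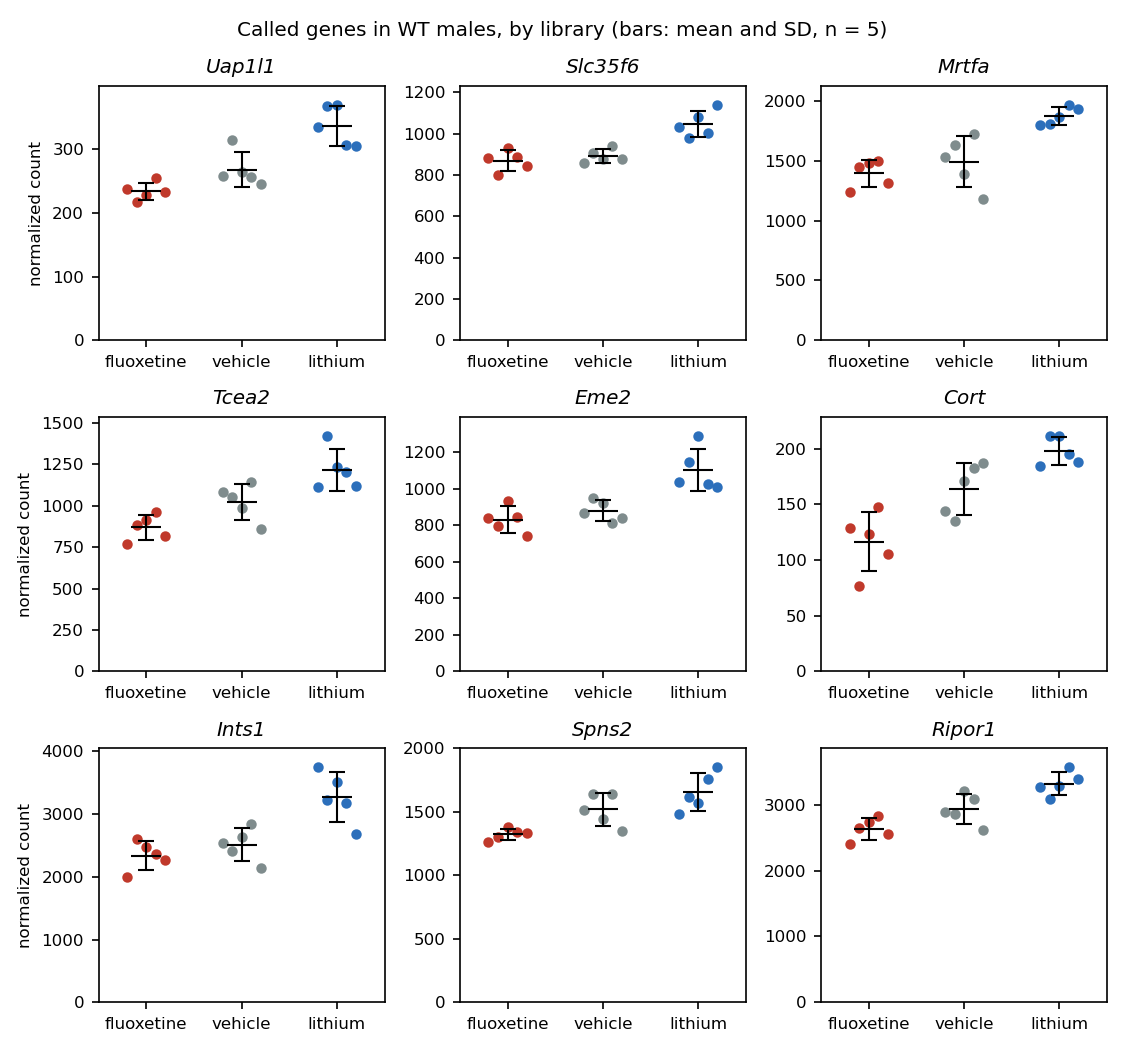
Normalized counts (vertical axis, from 0) of the 9 called genes in each of the 5 fluoxetine, 5 vehicle and 5 lithium wild-type males; points are libraries and bars the mean and SD. In each panel all fluoxetine points lie below all lithium points, and the vehicle points overlap one or both.

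Set beside vehicle, each of the 9 had a negative log2 difference for fluoxetine (-0.51 to -0.04) and a positive one for lithium (0.12 to 0.38). The 9 were chosen for a gap between the drugs, so a vehicle level between them was likely by that choice alone. Against vehicle 0 of 9 were called on either side. Over all genes, fluoxetine against vehicle gave 0 calls by limma (800, or 4.84%, at an unadjusted p under 0.05) and lithium against vehicle 3, or 0.0181%, all higher. Those 3 were Nptx2, a pentraxin secreted at excitatory synapses in response to activity, Ifrd1, a transcriptional coregulator, and Gmeb1, a binder of glucocorticoid modulatory elements. Nptx2 averaged 1616 ± 151 normalized counts with lithium, 1434 ± 115 with fluoxetine and 1123 ± 118 with vehicle, so the means with both drugs lay above that with vehicle, and the direct difference was -0.17 (adjusted p 0.567). Ifrd1 averaged 1114 ± 134, 860.5 ± 18.6 and 829 ± 59.5 in the same order, with no overlap between the drugs and a direct log2 difference of -0.36 (adjusted p 0.0735).

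Each of the 9 genes also had a negative fluoxetine minus lithium difference in the other sex and genotype groups: 6 were called in WT females, 7 in HT males and 6 in HT females. The backgrounds there were high, with 10.8%, 10.1% and 4.89% of all genes called lower, and those fluoxetine groups hold the libraries with low mt-Atp6, so drug and that division of libraries cannot be told apart in them. Spns2 stood at -0.39, -0.34 and -0.46 in that order, and Cort at -0.68, -0.48 and -0.70. Ints1 stood at -0.15 in HT males and -0.19 in HT females (adjusted p 0.303 and 0.208), while in WT females its value was -0.000396 (adjusted p 0.998). Mrtfa stood at -0.07, -0.10 and -0.11, none called. The difference of the drug contrast itself, between the sexes in wild type or between the genotypes in males, was called for 0 of the 9 genes (lowest adjusted p 0.125, for Ints1 between the sexes). Over all genes 53 were called for the sex difference (0.320%) and 21 for the genotype difference (0.127%).

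**Figure D2:**
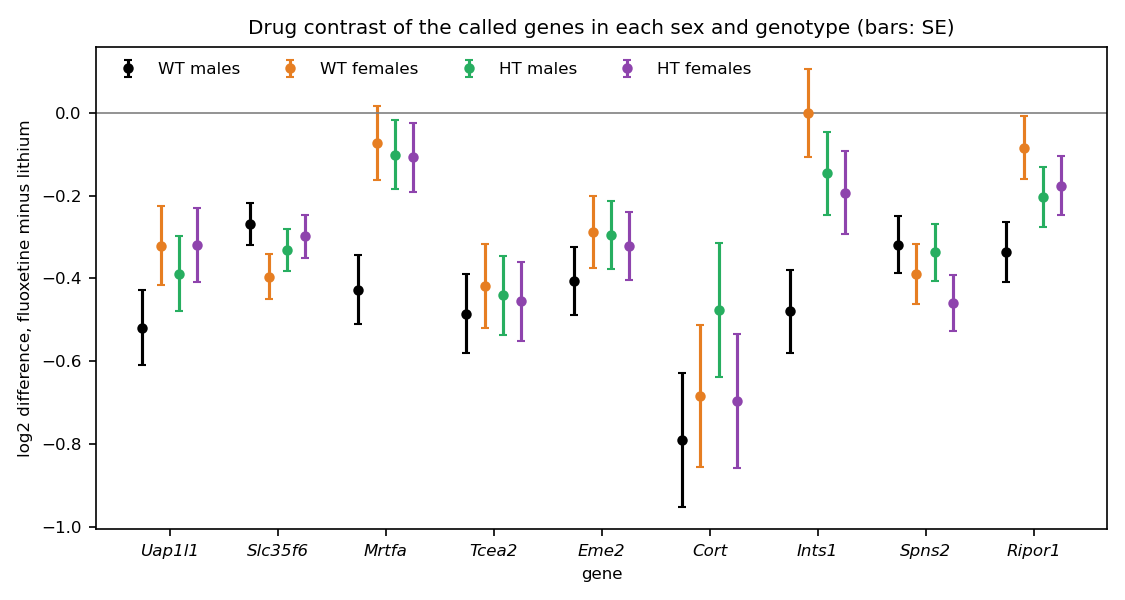
Log2 difference, fluoxetine minus lithium (vertical axis), of the 9 called genes in WT males, WT females, HT males and HT females; bars are the SE of the limma fit. All but Slc35f6 and Spns2 lie closer to 0 in each of the other 3 groups than in WT males. The 9 were chosen by their difference in WT males, so smaller differences in the other groups were likely by that choice alone. All but Mrtfa, Ints1 and Ripor1 have differences of -0.27 or lower in all groups.

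Just outside the threshold stood genes of the integrated stress response, none of which passed. Of 17 tested genes of that list 7 had an unadjusted p under 0.05 with lower values under fluoxetine and 2 with higher values, against 5.61% and 4.61% of all genes, and the list's median log2 difference was -0.09 (all genes 0.00). Atf4, the transcription factor of the pathway, had 3047, 2629, 2954, 3078 and 3042 normalized counts in the fluoxetine males and 3453, 4339.5, 3775, 3197 and 3606 in the lithium males. The groups did not overlap, vehicle males averaged 2906 ± 98.3, close to fluoxetine, and the log2 difference was -0.31 (SE 0.0728, adjusted p 0.0736). Chac1, which breaks down glutathione and is a target of Atf4, had 165, 139, 163, 138 and 140.2 with fluoxetine and 185, 333, 339.7, 162 and 192 with lithium. Lithium males 2 and 3 were about as high as each other and far above the other 3, and lithium male 4 overlapped the fluoxetine range; the log2 difference was -0.63 (SE 0.145, adjusted p 0.0632). Mthfd2, a mitochondrial enzyme of one-carbon metabolism, had 120.1, 124, 116, 139 and 99.2 and 153, 242, 198, 142 and 150.4, without overlap (log2 difference -0.54, SE 0.122, adjusted p 0.0622). Chac1 and Mthfd2 were the 2 genes that edgeR called beyond the 9.

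Other members of the list gave a divided picture. Sesn2, a leucine sensor, stood at -0.39 (unadjusted p 0.000487), Ddit3, a transcription factor of prolonged stress, at -0.37 (0.00158), Stc2, a secreted glycoprotein, at -0.44 (0.00526) and the amino acid transporter Slc7a5 at -0.32 (0.0041). Asns, the asparagine synthetase and a standard target of Atf4, stood at -0.09 (0.443), with 2403, 1815, 2290.2, 2513 and 1971 normalized counts under fluoxetine and 2079, 2510.4, 2496, 2167 and 2387 under lithium, and the lithium range lay inside the fluoxetine range. In the opposite direction were the stress factor Atf3 at 1.29 (0.0207), with means of 54.0 ± 28.9 and 24.2 ± 21.9, and the cystine transporter Slc7a11 at 0.30 (0.018). Against vehicle the list's median was 0.02 for fluoxetine and 0.17 for lithium. After a correction for GC content the direct median of -0.09 was -0.05.

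Promoters are printed for 2 genes of this list, Chac1 and Asns, and for Cort, because both stress genes are known targets of Atf4 while their values here differ. Each runs 250 bases before to 50 bases after the start site, from RefSeq (GRCm38.p6), 5′ to 3′ on the gene's strand. Capitals mark a match to TGATGNAA, the core of the element bound by Atf4 with its C/EBP partners, on either strand.
Chac1, chr2:119350992-119351291, plus strand: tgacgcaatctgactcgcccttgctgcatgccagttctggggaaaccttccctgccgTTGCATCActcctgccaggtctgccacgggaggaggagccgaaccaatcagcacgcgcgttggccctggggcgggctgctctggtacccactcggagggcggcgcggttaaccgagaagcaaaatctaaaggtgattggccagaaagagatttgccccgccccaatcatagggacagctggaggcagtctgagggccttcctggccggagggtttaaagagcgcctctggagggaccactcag
Asns, chr6:7693160-7693459, minus strand: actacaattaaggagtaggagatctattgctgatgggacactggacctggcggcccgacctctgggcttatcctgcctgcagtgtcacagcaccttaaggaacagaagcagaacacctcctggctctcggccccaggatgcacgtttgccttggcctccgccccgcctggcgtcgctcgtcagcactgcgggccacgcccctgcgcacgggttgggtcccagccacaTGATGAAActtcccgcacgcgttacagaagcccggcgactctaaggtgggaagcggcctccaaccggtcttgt
Cort, chr4:149126714-149127013, minus strand: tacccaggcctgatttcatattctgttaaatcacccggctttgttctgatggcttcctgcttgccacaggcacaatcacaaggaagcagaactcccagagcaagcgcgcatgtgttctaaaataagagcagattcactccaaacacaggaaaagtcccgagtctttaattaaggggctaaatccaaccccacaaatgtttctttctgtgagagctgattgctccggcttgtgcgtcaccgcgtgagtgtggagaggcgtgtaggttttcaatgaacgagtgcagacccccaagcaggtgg
The match starts at base 58 of the Chac1 window and at base 228 of the Asns window, and the Cort window holds none. Of all 32851 promoters of this length 1304 (3.97%) hold a match. Of the 17 tested genes of the list 16 had a promoter entry and 4 of these held one: Asns, Atf3, Chac1 and Slc7a11. A match is a description of letters and not a bound site, and these 4 genes had differences on both sides of 0.

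Subunits of oxidative phosphorylation mostly had negative differences, and no single one was called. Of 72 tested genes 69 had a negative log2 difference, and the median was -0.15. Lower at an unadjusted p under 0.05 were 37, and 7 were lower without overlap between the drugs. The shares of all genes were 5.61% and 1.62%. The median against vehicle was -0.06 for fluoxetine and 0.09 for lithium. Atp5e, the epsilon subunit of the ATP synthase, had 1139, 1001, 1117, 1234 and 1093 normalized counts with fluoxetine and 1436, 1402, 1311, 1324 and 1421 with lithium, a log2 difference of -0.31 (SE 0.0699, adjusted p 0.0632). Its fluoxetine values lay below all lithium values and below the vehicle mean of 1328 ± 39.8. Ndufb9, a subunit of complex I, stood at -0.36 (adjusted p 0.146), also without overlap. Transcripts of the mitochondrial genome itself had a median of 0.00 over 13 genes, with 0 at an unadjusted p under 0.05. The median of the 72 nuclear genes was -0.12 with the bulb level as a covariate and -0.05 without the 4 libraries high in bulb genes.

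Cytosolic ribosomal proteins gave a like picture. Of 79 tested genes 73 had a negative difference, and the median was -0.14. Lower at an unadjusted p under 0.05 were 28, against 5.61% of all genes. Without overlap were 18 lower and 1 higher, against 1.62% and 1.06%. The list's median against vehicle was -0.06 for fluoxetine and 0.07 for lithium. Rps21, of the small subunit, had 1634, 1657, 1511, 1658 and 1499.9 with fluoxetine and 1954, 2062, 2011, 2043 and 2019.6 with lithium, a log2 difference of -0.34 (SE 0.0988, adjusted p 0.2). Rpl13a, of the large subunit, stood at -0.28 (adjusted p 0.23), and its lithium mean of 4861 ± 240.1 was close to the vehicle mean of 4915 ± 263. In the other 3 groups, whose fluoxetine libraries are those with low mt-Atp6, the same list had medians of 0.08, 0.13 and 0.13. Ribosomal protein genes have many near-identical pseudogenes, so reads can be divided among copies and single values are uncertain.

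Genes of cholesterol synthesis and uptake had negative differences in 24 of 25 genes, with a median of -0.13. Against vehicle the median was -0.12 for fluoxetine and 0.02 for lithium. Lower at an unadjusted p under 0.05 were 5, against 5.61% of all genes. Acat2, at the entry to the pathway, had 1183, 1074, 1124, 1197 and 1117 and 1372, 1308, 1429.8, 1247 and 1291, without overlap (log2 difference -0.22, SE 0.0735, adjusted p 0.266). The median was -0.06 with the bulb level as a covariate and -0.08 without the 4 libraries high in bulb genes.

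Of the tested genes of the drugs' target systems none was called by limma. The serotonin transporter gene Slc6a4 was not analysed here. In the serotonin system, 19 tested genes, 0 were called and the median was 0.08. An unadjusted p under 0.05 was reached by 3, all higher with fluoxetine, against 4.61% of all genes. The receptor Htr7 had 241, 245, 197, 199 and 213 normalized counts with fluoxetine and 169.8, 136, 217, 162 and 183 with lithium, overlapping at lithium male 3 (log2 difference 0.34, SE 0.127, adjusted p 0.329). S100a10, an adaptor that carries serotonin receptors to the cell surface, stood at 0.26 (adjusted p 0.378), without overlap. Slc18a2, the vesicular monoamine transporter, stood at 1.31 (SE 0.596, adjusted p 0.44). Its highest values, 96.6, 59.5 and 58.2, were in fluoxetine male 2, lithium male 1 and fluoxetine male 5, all 3 high in bulb genes, and the part of bulb tissue in it was not tested. The cortical receptors Htr1a and Htr2a stood at 0.08 and 0.02 (SE 0.173 and 0.136).

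Among lithium's targets and the inositol enzymes, 14 tested genes, 0 were called and the median was -0.03. An unadjusted p under 0.05 was reached by 2, both lower with fluoxetine, against 5.61% of all genes. Cdipt, which joins inositol to lipid, had 3513, 3033, 3679, 4071 and 3257 normalized counts with fluoxetine and 3744, 3911, 4174, 4058 and 3879 with lithium (log2 difference -0.18, SE 0.0716, adjusted p 0.379). Pgm1, a phosphoglucomutase inhibited by lithium, stood at -0.12 (adjusted p 0.408), without overlap. Gsk3a and Gsk3b stood at -0.06 and 0.01 (SE 0.0912 and 0.0758), and the inositol monophosphatase Impa1 averaged 1863 ± 123 with fluoxetine and 1864 ± 211 with lithium.

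Neuropeptide and growth factor genes included several values below the lithium range. Vgf, a secreted neuropeptide precursor induced by neurotrophins, had 3655, 3174, 4012, 4568 and 3324 normalized counts with fluoxetine and 5709, 6644, 5849.6, 5415 and 5260.4 with lithium. The drugs did not overlap, vehicle males averaged 3714 ± 411, near fluoxetine, and the log2 difference was -0.63 (SE 0.173, adjusted p 0.17). Bdnf, the brain-derived neurotrophic factor, had 1001, 669, 923, 954 and 840.1 and 1077, 1047, 1109.9, 1057 and 1100.0, also without overlap (log2 difference -0.31, SE 0.153, adjusted p 0.487). Vgf and Bdnf were the 2 of 11 neurotrophin genes at an unadjusted p under 0.05, where the share of all genes that were lower was 5.61%. Lower without overlap were 3 of the 11, where the share of all genes was 1.62%. The median of the 11 was -0.04, and 4 were positive. Of 19 interneuron genes, Cort was the 1 called, 8 had a positive difference and 11 a negative one, and the median was -0.05. At an unadjusted p under 0.05 stood 3 lower (Cort, Pvalb and Vip) and 1 higher, Reln at 0.45, against 5.61% and 4.61% of all genes. The highest difference, named after its value was seen, was that of Calb2, a calcium buffer, at 1.246 (SE 0.729, adjusted p 0.569). Pvalb, the calcium buffer of fast-spiking interneurons, stood at -0.66 (SE 0.235, adjusted p 0.309), with 444 ± 93.8 against 694 ± 92.3 normalized counts. Somatostatin, Sst, stood at -0.36 (adjusted p 0.617) and Npy at -0.15 (adjusted p 0.574), while the GABA-synthesizing enzymes Gad1 and Gad2 stood at 0.19 and 0.11. In bulk tissue, fewer cells of a type and less RNA per cell cannot be told apart.

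The glucocorticoid-responsive genes Zbtb16 and Fkbp5 did not overlap between the drugs, and neither was called. Zbtb16, a zinc finger transcription factor, had 852, 978, 918, 668 and 769 normalized counts with fluoxetine and 1026, 1223, 1205, 1383 and 1426 with lithium (log2 difference -0.58, SE 0.138, adjusted p 0.0751). Fkbp5, a cochaperone of the glucocorticoid receptor, had 862, 1015, 867, 895 and 773 and 1336, 1274, 1094, 1328 and 1489 (log2 difference -0.56, SE 0.157, adjusted p 0.172). For both, the vehicle males spread widely, with means of 906 ± 238 and 908 ± 207. Other members did not share this: Tsc22d3 and Sgk1, glucocorticoid-induced genes, stood at -0.02 and -0.02. Depp1, a target of FOXO factors, stood at 0.84 (adjusted p 0.287). Of the 24 tested genes of the list 14 had a positive difference, and the median was 0.05. At an unadjusted p under 0.05, 4 were higher and 2 lower, against 4.61% and 5.61% of all genes. Without overlap 1 was higher and 2 were lower, against 1.06% and 1.62% of all genes.

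On the side higher with fluoxetine, the genes with the smallest p were Pnck, Jade1, Cdk19, Tmem91 and Glod4, none of which passed. Pnck, a calcium/calmodulin-dependent kinase, had 1821, 1694, 1673, 2008 and 1737 normalized counts with fluoxetine and 1345, 1328, 1392, 1414 and 1534 with lithium. The groups did not overlap and vehicle males averaged 1813 ± 153, near fluoxetine (log2 difference 0.35, SE 0.0793, adjusted p 0.0632). Cdk19, a kinase of the Mediator complex, had 2219, 2283, 2266, 2161 and 2332 and 2012, 1826, 1924, 2015 and 2005 (log2 difference 0.20, SE 0.0485, adjusted p 0.0751). Here too the vehicle mean, 2244 ± 78.2, was that of fluoxetine rather than lithium. Jade1, a scaffold of a histone acetyltransferase complex, stood at 0.21, Tmem91 at 0.41 and Glod4 at 0.30.

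Genes of meninges, olfactory bulb and red cells had mostly positive differences, with 0 genes called. All 15 tested genes of meninges and fibroblasts had a positive difference, with a median of 0.38. Of these 9 were at an unadjusted p under 0.05 and 1 was without overlap, where the shares of all genes that were higher were 4.61% and 1.06%. Fmod, a collagen-binding proteoglycan, had 1087, 889, 796, 744 and 982 normalized counts with fluoxetine and 663, 679, 565, 726 and 714 with lithium (log2 difference 0.42, SE 0.156, adjusted p 0.334). For Col1a1, a chain of type I collagen, the fluoxetine males 1 to 5 had 829.9, 988, 516, 532 and 1129.9, the 3 highest being those high in bulb genes. The median of the meningeal list was 0.24 with the bulb level as a covariate and 0.02 without the 4 libraries high in bulb genes. Olfactory bulb genes had a median of 1.76 over 15 genes. Of these 4 were higher at an unadjusted p under 0.05 and 0 were without overlap, against the same shares of all genes. Their median was still 1.35 without the 4 libraries, so that fit did not even out the bulb level. The levels of fluoxetine males 3 and 4 (-0.0186 and -0.0317) lay above those of lithium males 2 to 5 (-0.850 to -0.346). Cdhr1, a cadherin of mitral cells, had 1142, 4790.5, 709, 786 and 3501 with fluoxetine and 3362, 159.8, 104, 415 and 372 with lithium, so 1 library of the lithium group reached the fluoxetine range. Omp, the olfactory marker protein, had 178, 245, 26.6, 11.9 and 274 and 92.1, 5.61, 9.38, 15.3 and 12.6. The bulb level averaged 0.595 ± 0.602 with fluoxetine and -0.271 ± 0.723 with lithium (SD, n = 5 each), a difference with p = 0.0635 by a two-sided exact permutation test (0.254 adjusted over 4 library measures), where 5 against 5 cannot go below 0.00794. All 16 genes of bulb interneurons and neuroblasts had a positive difference (median 0.61, -0.12 with the bulb covariate and 0.32 without the 4 libraries), as had all 8 red cell genes (0.30, 0.21 and 0.27). Of these tissues only the bulb entered the fits, and the part of meninges and red cells in the 9 calls was not tested. With the bulb level as a covariate the 9 log2 differences were -0.66 to -0.24, against -0.79 to -0.27, and their lowest adjusted p by limma was 0.0956.

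**Figure D3:**
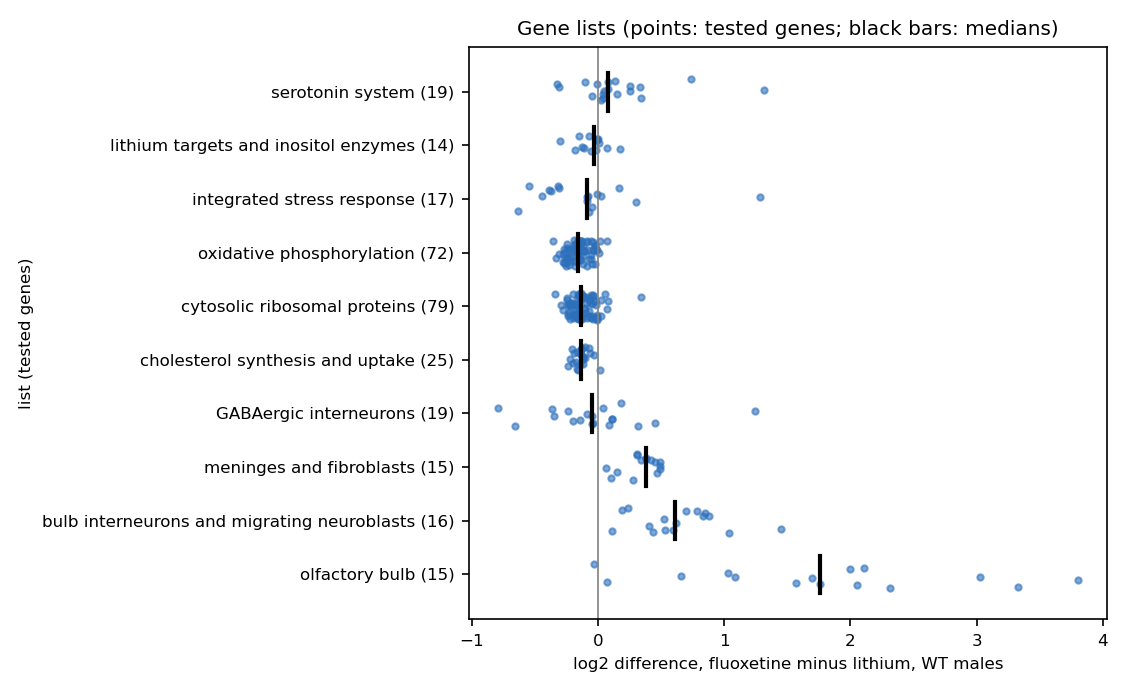
Log2 difference, fluoxetine minus lithium (horizontal axis), of each tested gene of 10 lists in wild-type males; points are genes and black bars the medians. Oxidative phosphorylation, ribosomal and cholesterol genes lie just left of 0, meningeal and bulb genes to the right, and the serotonin and lithium target lists around 0.

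Base composition also moved with the comparison. Over 16535 genes with a transcript in the reference, cut by GC content into 5 bins, the median log2 difference was 0.06, 0.03, 0.00, -0.03 and -0.07 from the lowest bin to the highest. All 9 called genes had a GC content above the median of 49.5%, between 51.7% and 61.2%, and 5 lay in the highest bin. The contrast of GC-rich with GC-poor genes within a library was -0.0763 ± 0.0800 with fluoxetine, 0.0567 ± 0.0635 with lithium and -0.0379 ± 0.103 with vehicle (SD, n = 5 each). After a correction for GC content in each library 11 genes were called, among them 7 of the 9, and Spns2 and Ripor1 had an adjusted p of 0.0512 and 0.128.

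**Figure D4:**
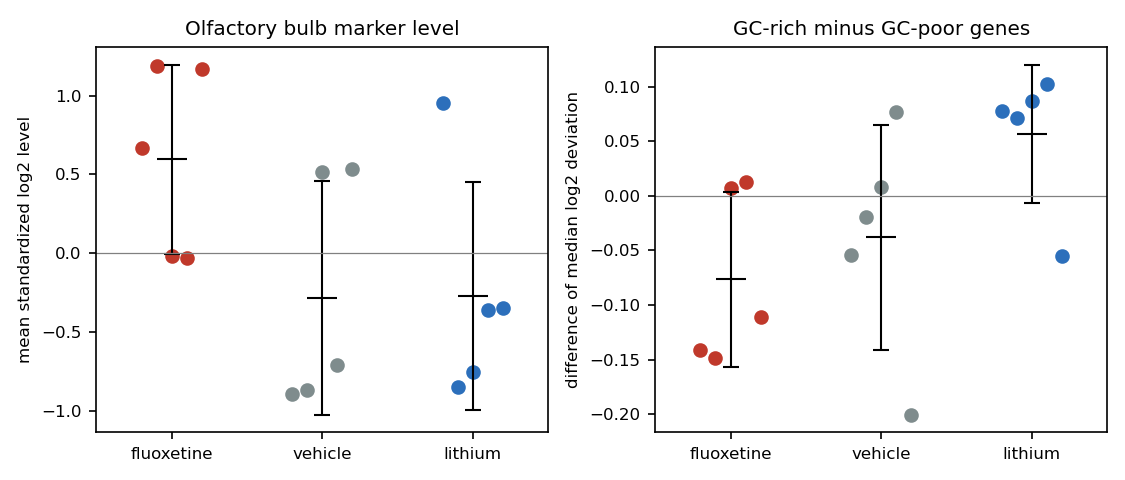
Left, the olfactory bulb marker level (mean standardized log2 value) of each wild-type male library; right, the median log2 deviation of GC-rich genes minus that of GC-poor genes. Points are libraries and bars the mean and SD, n = 5 each. On the left 3 fluoxetine libraries and 1 lithium library stand highest, above vehicle males 3 and 5 (0.514 and 0.535). On the right 4 lithium libraries lie above 0, as do fluoxetine males 3 and 4 and vehicle males 3 and 4.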

How the data were processed

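Poly(A) messenger RNA of prefrontal cortex was sequenced with a stranded kit, per the labels' protocols. The submitters' processing notes name Salmon 0.11.2, GRCm38, DESeq2 1.19.11 and R 3.6.0. What the authors deposited is a signal: counts scaled by 1 size factor per library. In each library 100% of values were whole multiples of 1 step within 0.01, which gave back the reads. Whether counting used strand is not given in the sources used here.

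Limma 3.58.1 (R 4.3.3, trended and robust prior) was fitted to log2(value + 1) with 12 group means over all 59 libraries. The test covered 16546 of 18088 genes, those whose mean reached 10, with Benjamini-Hochberg adjustment and a threshold of 0.05. A log2 difference is on that scale, which understates changes of low genes. The design had also allowed for raw counts, and its test for normalized values was used. Recovered reads were tested with edgeR 4.0.16 and DESeq2 1.42.0 as alternatives. Scripts were tested on simulated data. Library measures were compared by exact permutation.

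Genes were named by rule: up to 10 called genes in each direction by p and 6 by size with a mean of at least 50, called list members, and the serotonin and lithium target lists. The others were singled out after their values were seen. The members and the 36 gene lists were chosen with earlier results of these data known. The GC corrections and the fit without 4 libraries were added after the data were seen. Positions are those of GENCODE M21.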

Additional observations from a re-analysis of the deposited data

Results flagged for a closer look

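A single library stood apart from the other 4 of its group in 9 of 116 groups of values examined (54 genes and 4 library measures in each of the 2 drug groups), where chance flags about 1 group in 20. Lithium male 1 accounted for 5 of the 9: Cdhr1 at 3362 normalized counts, Omp at 92.1, S100a5 at 39.3, Slc18a2 at 59.5 and the bulb level at 0.956 were each far above its group. Cdhr1, Omp and S100a5 are among the genes averaged into the bulb level. These flags are therefore not separate, and the chance rate, which takes groups as independent, does not apply to them. Fluoxetine male 2 was low in Atf4 at 2629. Ddit3 was high in fluoxetine male 4 at 342, and mt-Co2 low in fluoxetine male 1 at 62210. Glod4 was low in lithium male 2 at 831.

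Among the 54 genes examined here, the drug contrast differed between groups for 3. For mt-Atp6 the contrast in WT males exceeded that in WT females by 1.66 and that in HT males by 1.94 on the log2 scale (adjusted p 1.49e-05 and 7.75e-08 by limma). For Rps23 the differences were -0.515 and -0.493 (0.000694 and 0.000901), and for mt-Co2 the difference between the sexes was 1.26 (0.0430). The fluoxetine females and HT fluoxetine males are groups with low mt-Atp6, so sex or genotype and that division cannot be told apart. The WT males were taken because they lie outside that division. The mt-Atp6 differences therefore follow from that choice, and their p-values are no test of the drugs.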

How the results depend on the processing

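The 9 called genes were lower with fluoxetine in every alternative in which they were tested. Because the drugs did not overlap for these genes, leaving out libraries or fitting fewer groups could not have changed that direction. The count of called genes was 6 to 12 with edgeR, quantile normalization, other filters, pseudocounts, no trend, GC correction and a fit to the 10 libraries. It was 45 with DESeq2, 19 in a fit to the 15 wild-type males, 38 in a fit to the 9 groups outside the low mt-Atp6 libraries, 17 after GC and length correction, 1 without the 4 libraries high in bulb genes, 0 with the bulb level as a covariate and 0 with bulb and striatal levels. Leaving out 1 library gave 0 to 13. With the replicate number as a block the count was 15 in all 59 libraries (all 9 among them) and 1 in the 10 compared (Trpc2, none of the 9). Same-numbered libraries correlated at -0.0866, -0.0902, 0.290, -0.0224 and -0.0351, so the numbers were not treated as pairs, and 1 of the 5 fluoxetine libraries correlated best with the lithium library of its own number. The causes of these changes were not tested.

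With the bulb covariate the counts in WT females, HT males and HT females were 278, 81 and 372 (main 3565, 3048 and 1454), and with both levels 356, 87 and 332. The sex difference gave 214 with DESeq2, 92 at a mean of at least 200 and 101 after GC and length correction (main 53). The genotype difference gave 40 and 32 with DESeq2 and that correction (main 21).

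Without 1 library the bulb level difference ran from 0.718 to 1.17 (p = 0.0238 without lithium male 1, exact permutation), and that of mitochondrial percent from -0.471 to 0.135.

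Among genes with no call, Gsk3a (-0.06) turned sign at 0.0571 with the bulb covariate, 0.0502 with both levels, 0.0952 with the 4 libraries left out, 0.0236 with GC correction and 0.0207 with GC and length correction. Gsk3b (0.01) turned sign at -0.0182 with GC correction and -0.026 with GC and length correction, and within -0.0164 to 0.0271 without 1 library. Asns (-0.09) turned sign at 0.0374 with the bulb covariate, 0.0415 with both levels and 0.00779 with the 4 libraries left out. Cdhr1 (2.05) turned sign at -0.0911 with the bulb covariate and -0.0507 with both levels. Cdhr1 is itself among the genes averaged into the bulb level, so a fit with that level lowers its difference by construction. Those values therefore cannot show how its difference depends on the processing. mt-Atp6 (0.04) turned sign at -0.0458 with GC correction, and within -0.0268 to 0.0815 without 1 library. mt-Co2 (-0.02) turned sign at 0.0523 with quantile normalization, 0.0763 with the bulb covariate, 0.102 with both levels and 0.183 with the 4 libraries left out, and within -0.129 to 0.109 without 1 library.
Cort was not tested at a mean of at least 200. Precision is limited by 5 libraries a group.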

Other observations

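No gene of the lists in this paragraph other than Cort was called. Of all genes, 4.61% were higher and 5.61% lower with fluoxetine at an unadjusted p under 0.05. Thalamic genes had a median log2 difference of 0.28 over 12 genes, 9 of them positive and 3 higher with fluoxetine at an unadjusted p under 0.05. Activity-induced secreted proteins, a list that holds Cort, had a median of -0.17, with 11 of 15 negative. Striatal neuron genes had -0.12 over 12, microglial genes -0.11 over 18 (2 lower at that level) and myelin genes 0.12 over 21, 17 of them positive. Choroid plexus and ependyma had 0.18 over 6, Wnt effectors and targets 0.11 over 21 (2 higher), perineuronal net genes 0.10 over 17 (3 higher) and genes of immature neurons and axon growth 0.10, with 21 of 26 positive. Heat shock proteins had 0.08 over 18, glutamate and GABA receptors 0.06 over 36, cortical layer genes -0.06 over 21, thyroid hormone response -0.06 over 14 and synaptic vesicle and scaffold genes -0.05 over 34 (4 lower). Medians of the other 8 lists, immediate early genes, circadian clock, ER stress, astrocytes, oligodendrocyte precursors, endothelial and mural cells, voltage-gated channels and ion handling, ran from -0.03 to 0.04, against 0.00 over all genes.

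Trpc2, a channel gene of vomeronasal neurons singled out after its values were seen, had 27.6, 34.4, 30.4, 38.6 and 21.9 normalized counts in the fluoxetine males and was at 0 in all 5 lithium males. Vehicle males had 37.8, 16.6, 47.9, 0 and 36.4. The gene overlaps Xndc1 and Xntrpc on the same strand, so reads can be divided among them, and limma over all 59 libraries did not call it (adjusted p 0.141), whereas it was called in the fit to the 10 compared libraries.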
